A study of Mus musculus with 18 samples.

Results

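The genes described here are 36 molecular chaperones, proteins that help other proteins fold, taken as the rows of the deposited expression table whose mouse gene symbol is on a list of chaperone names. They make up 36 of 54307 gene rows, each with 1 row, and were sorted by the compartment their proteins work in: 15 in the endoplasmic reticulum (ER), 17 in the cytosol and 4 in mitochondria. Their messenger RNAs were compared between small extracellular vesicles (sEVs), membrane particles that cells release, and the cells themselves. The study asked whether brain cell types load mRNA into sEVs in different ways.

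Poly(A) RNA was measured in 18 libraries of primary mouse brain cultures: astrocytes, microglia and neurons, and the sEVs released by each, with 3 libraries in each of the 6 groups. No group carries a named treatment or genetic change, and strain, age, culture time and the way sEVs were isolated are not given in the sources used here. The cell RNA came from a portion of the cultures that had released the sEVs, and cDNA was made with a low-input kit that starts from poly(A) tails and does not mark strand. The labels do not say whether replicates are separate cultures, so p-values measure the spread between these libraries, which may be technical. Because each library is bulk RNA, fewer cells of a type and less RNA per cell cannot be told apart.

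Values are normalized counts: read estimates per gene that the authors scaled to be comparable between libraries, so the reads behind a value are unknown. Their sum per library ran from 36947428 to 69276566, and 13494 to 18131 genes reached a value of 10 in cell libraries against 7840 to 15951 in sEV libraries. Microglia sEV libraries had the fewest such genes, 7840 to 10059, against 11470 to 13962 in astrocyte sEVs and 15157 to 15951 in neuron sEVs. Markers of each labelled cell type were at their highest share of the total in that type's own libraries, although Tmem119, a microglia marker, was listed at 0 in all microglia sEVs. Oligodendrocyte markers, all 7 of them detected, took 0.587 to 1.25% of the total in astrocyte cells and 0.221 to 0.458% in astrocyte sEVs, against 0.00704 to 0.00813% in microglia cells and 0.0641 to 0.226% in neuron cells. Their part in the results below was not tested. Endothelial and fibroblast markers took at most 0.00392% and 0.0323% of any library. Ferritin light chain (Ftl1) alone took 3.95 to 22.0% of each sEV library and at most 1.41% of each cell library.

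Chaperones of the HSP70 family bind short greasy stretches of unfolded protein and let go of them in a cycle driven by ATP, with J-domain proteins as starters and exchange factors as releasers. HSP90 proteins act later, on clients that are nearly folded, and chaperonins enclose a client in a barrel. The ER has its own set, made on ribosomes bound to the ER membrane, whereas cytosolic chaperones and the precursors of mitochondrial ones are mostly made on free ribosomes. Many, but not all, of the ER set are retrieved to the ER by a short signal at the end of the protein. When unfolded protein builds up, cells raise ER chaperones through the unfolded protein response and cytosolic ones through heat shock factors.

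The gene sequences show how the compartments are marked. The lines that follow give the last 30 coding bases of an ER HSP70, an ER disulfide isomerase, a cytosolic HSP70 and a cytosolic HSP90, with the 4 codons before the stop in capitals. They were read from GENCODE vM21 transcripts on build GRCm38: Hspa5 at chr2:34776081-34776110 on the plus strand, Pdia4 at chr6:47796491-47796520 on the minus strand, Hspa8 at chr9:40805085-40805114 on the plus strand and Hsp90ab1 at chr17:45568018-45568047 on the minus strand. All lie in the last coding exon.
Hspa5: gaagaggatacatcagaaAAAGATGAGTTG
Pdia4: acaaagaggagcaggaccAAGGAAGAGCTT
Hspa8: tcttcaggccccaccattGAAGAGGTGGAT
Hsp90ab1: gaggatgcctcgcgcatgGAAGAGGTGGAT
The capitals of Hspa5 and Pdia4 code for an ER retrieval signal of the KDEL type, and those of Hspa8 and Hsp90ab1 for the EEVD tail by which cytosolic HSP70 and HSP90 bind co-chaperones. A KDEL-type end was found in 8 of the 15 ER genes (Hspa5, Hsp90b1, Calr, Pdia4, Pdia6, P4hb, Hyou1 and Sdf2l1) and, by the pattern used (any residue, D or E, then E and L), in no other member. Pdia3, Creld2 and Manf end in D and L and were not counted, although such ends can also act as retrieval signals. An EEVD end was found in 5 cytosolic genes (Hspa8, Hsp90aa1, Hsp90ab1, Hspa1a and Hspa1b).

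The promoters differ too. The ER stress response element, CCAAT and CCACG with any 9 bases between, is bound by NF-Y at its CCAAT end and by unfolded protein response factors at its CCACG end. Windows from 250 bases before to 50 after the start were taken from RefSeq (GRCm38.p6) and searched on both strands, and 29 of the 36 members had one. The element was in 7 of 13 ER genes, in 0 of 13 cytosolic and 0 of 3 mitochondrial genes, and in 0.119% of all 32851 promoter windows. Each match is printed 5′ to 3′ on the gene's strand with 5 flanking bases and the element in capitals, since among the members with a window only ER genes held it. It can read forward or reverse, as CCAAT first or CGTGG first.
Hspa5, chr2:34772020-34772048, plus strand: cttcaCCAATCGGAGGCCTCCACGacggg
Calr, chr8:84847070-84847098, minus strand: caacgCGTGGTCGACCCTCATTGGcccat
Hsp90b1, chr10:86705633-86705661, minus strand: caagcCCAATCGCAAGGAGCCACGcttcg
Hsp90b1, chr10:86705528-86705556, minus strand: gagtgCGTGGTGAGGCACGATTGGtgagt
Canx, chr11:50325795-50325823, minus strand: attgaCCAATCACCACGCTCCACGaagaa
Pdia6, chr12:17266486-17266514, plus strand: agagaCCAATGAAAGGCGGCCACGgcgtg
Dnajc3, chr14:118937822-118937850, plus strand: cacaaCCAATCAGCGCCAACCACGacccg
Creld2, chr15:88819515-88819543, plus strand: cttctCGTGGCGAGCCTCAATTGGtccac
A second form, ATTGG, any base and CCACG, was in Dnajb11 alone among the members with a window and in 0.0365% of windows. CCAAT by itself, which also lies within the first element, was in all 13 ER genes, 8 of 13 cytosolic genes and 37.4% of windows. A match is a description of these letters and not a measured binding site.

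Messenger RNAs of all 15 ER chaperones were lower in sEVs than in cells. Over the mean of the 3 cell types, limma on log2(normalized count + 1) called 15 of 15 ER genes lower and none higher at a Benjamini-Hochberg adjusted p under 0.05. Over all 35 chaperones tested, 25 were called lower and 2 higher, beside 37.1% lower and 12% higher (49.1% in either direction) among 19612 genes tested. The ER median was a log2 difference of -3.14, against -0.93 for all genes, -0.66 for the 16 cytosolic genes tested and -0.67 for the 4 mitochondrial ones. Of the cytosolic genes 7 were called lower and 1 higher, and of the mitochondrial genes 3 lower and 1 higher. With every library set to the same total, or after quantile normalization, the ER count stayed at 15 lower with medians of -3.20 and -3.18, while the median of all genes went to -1.0 and 0.07.

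**Figure D1:**
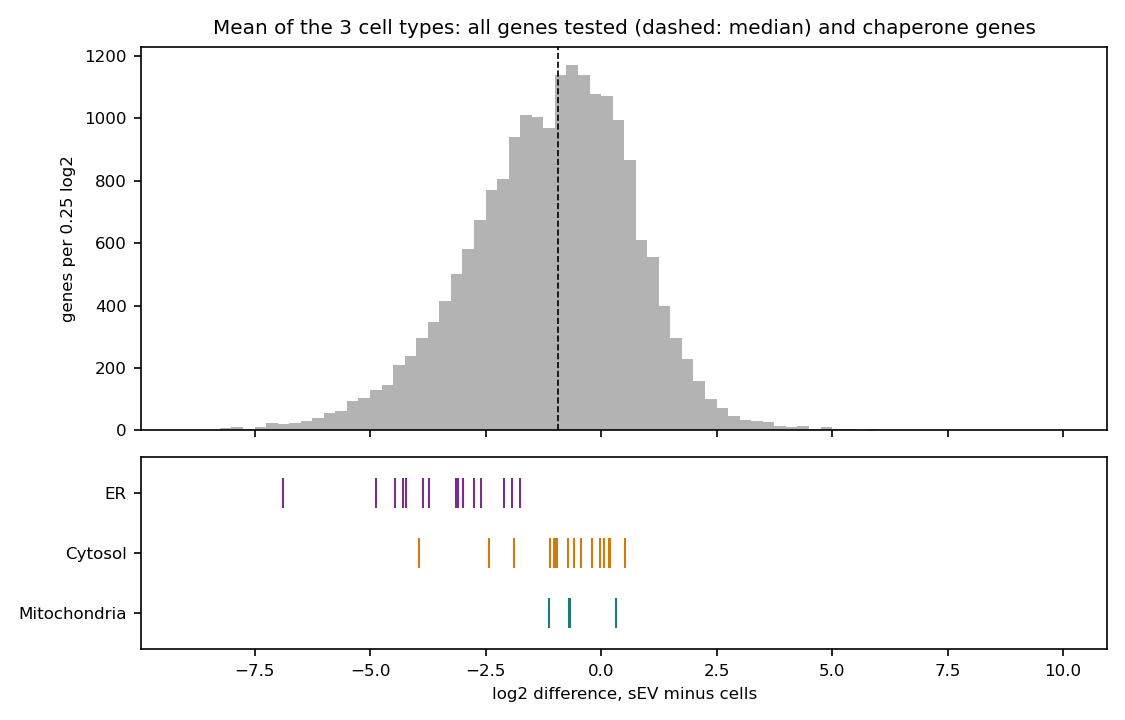
Upper panel: number of genes (y axis) by log2 difference of sEVs minus cells, mean of the 3 cell types (x axis), for all genes tested, with the median dashed. Lower panel: 1 tick for each chaperone gene tested, by compartment; the ER ticks all lie at or below -1.75, while 13 of 16 cytosolic and all mitochondrial ticks lie between -1.12 and 0.51, and the leftmost ER tick (Hyou1) rests on libraries listed at 0.

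The same contrast shows within single libraries, where a scaling factor common to a whole library drops out. Shares of the total still depend on the other genes of the library, Ftl1 among them. The summed normalized count of the ER genes was 1.02 to 1.85 times that of the cytosolic genes in the 9 cell libraries and 0.128 to 0.294 times in the 9 sEV libraries. ER chaperones took 1.03, 1.10 and 1.07% of the total in astrocyte cells and 0.118, 0.0948 and 0.0823% in astrocyte sEVs. In microglia the ER share was 0.797, 0.916 and 0.932% in cells and 0.191, 0.119 and 0.139% in sEVs. In neurons it was 0.939, 1.03 and 0.988% in cells and 0.0557, 0.0491 and 0.0520% in sEVs. Every sEV library was below every cell library, with neuron sEVs the lowest. For the cytosolic genes the microglia sEVs, at 0.651, 0.677 and 0.717%, were all above the microglia cells at 0.538, 0.495 and 0.570%. Neuron sEVs went the other way for the same genes, with 0.314, 0.279 and 0.332% against 0.919, 0.870 and 0.811% in cells, and astrocyte sEVs at 0.680, 0.427 and 0.641% were below their cells at 0.821, 0.977 and 0.691%. The microglia shares also reflect library totals, which were 65071835 to 69276566 in cells and 53956745 to 54740814 in sEVs. On the deposited values the median log2 difference of the cytosolic genes in microglia was 0.01.

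**Figure D2:**
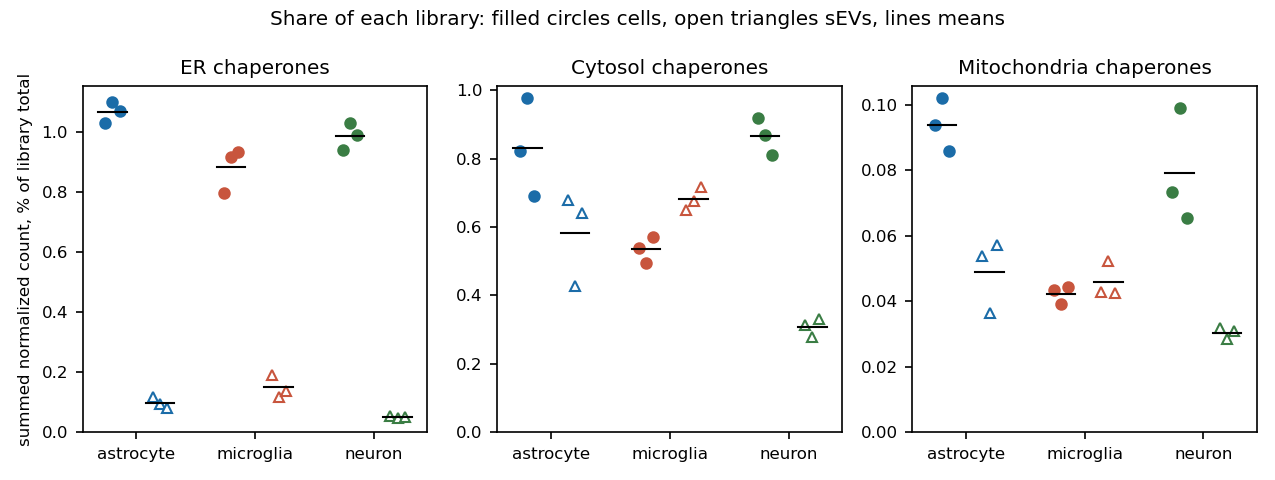
Summed normalized count of the chaperone genes of each compartment as a percentage of the library total (y axis, from 0) by cell type (x axis). Filled circles are cell libraries, open triangles sEV libraries and lines group means; ER shares are at most 0.191% in all sEV libraries and at least 0.797% in all cell libraries, while cytosolic shares in microglia sEVs lie above those in microglia cells.

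Hspa5, which encodes BiP, the HSP70 of the ER lumen (identifier ENSMUSG00000026864.14), was lower in the sEVs of every cell type. In astrocytes Hspa5 had normalized counts of 76466, 81810 and 88506 in cells and 3695, 6285 and 2628 in sEVs. In microglia Hspa5 stood at 247487, 310582 and 308345 in cells and 36412, 17455 and 30105 in sEVs. Neurons held Hspa5 at 74440, 93859 and 91924 in cells and 2331, 2595 and 2713 in sEVs. Cells and sEVs did not overlap in any type, and microglia were the highest on both sides. Hspa5 was 19.7-fold lower in sEVs over the mean of the types (log2 -4.30 ± 0.16 SE, adjusted p = 3.23e-11), with log2 differences of -4.38 ± 0.27 in astrocytes, -3.42 ± 0.27 in microglia and -5.08 ± 0.27 in neurons.

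Hsp90b1 encodes GRP94, the HSP90 of the ER. Astrocytes held Hsp90b1 at 33613, 34325 and 41633 in cells and 945, 3272 and 1955 in sEVs. Microglia held Hsp90b1 at 36733, 47309 and 48435 in cells and 4616, 1664 and 2703 in sEVs. In neurons Hsp90b1 was at 36917, 39090 and 41659 in cells and 2320, 1408 and 2206 in sEVs. Ranges of the 3 types overlapped within cells and within sEVs, and no sEV library reached a cell library. The log2 differences were -4.32 ± 0.39, -3.99 ± 0.39 and -4.34 ± 0.39 in astrocytes, microglia and neurons, and the F test of a difference between types gave an adjusted p of 0.857.

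The lectin chaperones calreticulin (Calr, soluble in the ER lumen) and calnexin (Canx, anchored in the ER membrane) hold newly made glycoproteins. Calr in astrocytes was at 16489, 16899 and 14811 in cells and 2020, 1464 and 1875 in sEVs. Calr in microglia was at 19161, 21388 and 21287 in cells and 2636, 4291 and 3568 in sEVs. Calr in neurons was at 22139, 19315 and 23681 in cells and 1509, 1450 and 2255 in sEVs. All sEV libraries were below all cell libraries, and Calr was 8.84-fold lower over the mean (log2 -3.14 ± 0.12 SE, adjusted p = 3.58e-11). For Canx the astrocyte values were 103800, 108514 and 138375 in cells and 25314, 22547 and 15259 in sEVs. For microglia they were 61017, 76299 and 71981 in cells and 27206, 20886 and 17484 in sEVs. For neurons they were 116718, 143445 and 110938 in cells and 11307, 11293 and 8315 in sEVs. Canx also separated fully, and its sEV mean was 31.3% of the cell mean in microglia, 18% in astrocytes and 8.33% in neurons, with log2 differences of -1.69 ± 0.20, -2.49 ± 0.20 and -3.59 ± 0.20.

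Protein disulfide isomerases make and reshuffle disulfide bonds in the ER, and Pdia3 does so for glycoproteins held by Calr and Canx. Astrocyte Pdia3 was at 62009, 66607 and 74728 in cells and 2077, 3294 and 2056 in sEVs. Microglia Pdia3 was at 76180, 87665 and 94297 in cells and 10143, 8417 and 8038 in sEVs. Neuron Pdia3 was at 54319, 61876 and 56321 in cells and 1866, 1096 and 1486 in sEVs. The microglia sEVs stood above the other sEVs in every library. Pdia3 was 22.1-fold lower over the mean (log2 -4.46 ± 0.11 SE, adjusted p = 1.33e-12), the smallest p of the 35 genes. Astrocyte Pdia6 was at 23132, 25518 and 27588 in cells and 1299, 2020 and 1316 in sEVs. Microglia Pdia6 was at 24206, 29901 and 32042 in cells and 5796, 2232 and 3809 in sEVs. Neuron Pdia6 was at 32279, 33327 and 37044 in cells and 1630, 1286 and 1585 in sEVs. Pdia6, which has a KDEL-type end as well as the ER stress element, was 14.4-fold lower over the mean (log2 -3.85 ± 0.15 SE, adjusted p = 1.01e-10). Pdia4 was 29.1-fold lower, with sEVs between 41.1 and 1745 and cells between 4103 and 23102. P4hb, which is also a subunit of the collagen prolyl hydroxylase, was 7.90-fold lower.

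The remaining ER genes were called lower over the mean as well. Hyou1, an HSP70-like exchange factor for BiP, was at 127 to 552 in cells, listed at 0 in all 3 astrocyte sEV libraries and in 2 of 3 microglia sEV libraries, and at 3.29 to 39.5 in neuron sEVs, so no fold is given. The J-domain partners of BiP were Dnajb11, 8.52-fold lower, Dnajc3, 4.29-fold lower, and Dnajb9. Dnajb9 was called only over the mean (log2 -3.72 ± 0.99 SE, adjusted p = 0.00621), with microglia sEVs at 1917, 0 and 145 beside 1793, 1386 and 1563 in cells. Without the first of these sEV libraries the microglia difference was -7.02 (adjusted p = 0.00124). The neuron Dnajb9 difference of -3.99 was called without microglia sEV library 1 or 2 (adjusted p = 0.0166 and 0.000405), and the astrocyte one of -2.58 without library 2 (adjusted p = 0.0108). Creld2, a disulfide isomerase-like stress gene, was 6.71-fold lower, Sdf2l1, a partner of Dnajb11, 3.79-fold lower, and Manf, a secreted stress factor, 3.37-fold lower, the smallest change of the 15.

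By cell type, 14 of 15 ER genes were called lower in each of astrocytes, microglia and neurons, with Dnajb9 the exception in all 3 and no ER gene higher. The medians were -3.18, -2.96 and -3.81, beside -0.60, -0.79 and -0.47 for all genes. Over all chaperones tested, 24, 15 and 24 of 35 were called lower, beside 18.6%, 21.2% and 18.9% of genes tested, and 2, 0 and 1 higher, beside 8%, 5.08% and 11.1%. At an unadjusted p under 0.05, 1 chaperone was higher in microglia by limma. Manf in microglia (log2 -1.09 ± 0.36 SE, adjusted p = 0.0375) lost its call in 10 of 27 alternatives, among them both other scalings (adjusted p = 0.208 and 0.272) and leaving out 5 of the 6 microglia libraries, all but sEV library 3, 1 at a time (0.0609 to 0.122). Dnajc3 in neurons lost its call without neuron sEV library 2 or neuron cell library 3 (adjusted p = 0.0595 and 0.0519), and Dnajc3 in microglia with only the 6 microglia libraries fitted (0.0565).

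Within the ER set, sequence features the rule did not use were set beside the sEV differences as a description. The 8 genes with a KDEL-type end had a median log2 difference of -4.04 over the mean of the cell types (-6.89 to -1.92, the lowest being Hyou1 with its libraries at 0) and the other 7 of -2.74 (-4.46 to -1.75, the lowest being Pdia3). These ranges overlap. The 7 genes with the stress element had a median of -3.14 (-4.30 to -2.10), and the 6 with a window but without it -3.41 (-4.86 to -1.92). Median lengths of GENCODE principal transcripts were alike in the compartments, at 2513 bases in the ER, 2484 in the cytosol and 2371.5 in mitochondria. Median GC contents were 48.9, 49.3 and 49.25%. Within the compartments lengths varied widely, from 1108 to 5141, 903 to 5622 and 774 to 3049 bases. Whether length goes with the sEV difference of single genes was not tested.

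**Figure D3:**
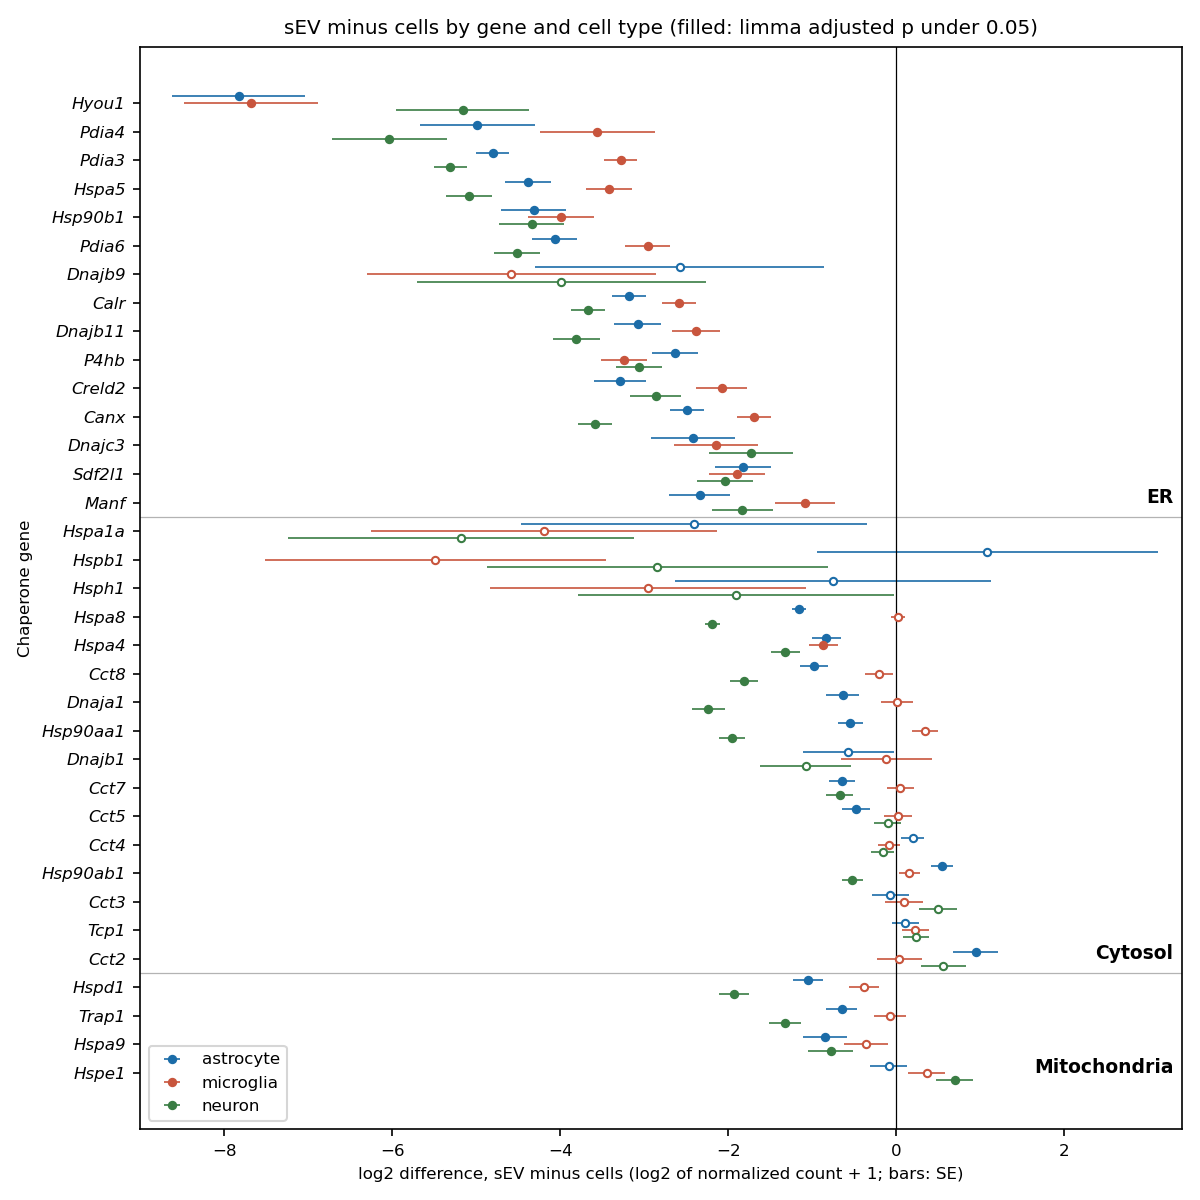
Log2 difference of sEVs minus cells (x axis) for each chaperone gene tested (y axis), by cell type, with bars for the SE of the limma fit and filled points for an adjusted p under 0.05. ER genes lie at or left of -1.09, microglia points of cytosolic genes gather near 0 and neuron points lie further left for Hspa8, Hsp90aa1, Dnaja1 and Cct8; Hyou1, Dnajb9, Hspa1a, Hspb1 and Hsph1 include libraries at 0, so their positions depend on the pseudocount.

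The cytosolic set split by cell type. Limma called 7 of 16 tested genes lower and 2 higher in astrocytes, 1 lower and 0 higher in microglia, and 7 lower and 0 higher in neurons, with medians of -0.56, 0.01 and -1.20, beside 18.6%, 21.2% and 18.9% of all genes lower and 8%, 5.08% and 11.1% higher. The 7 lower genes in astrocytes became 4 without astrocyte sEV library 2, without sEV libraries 2 and 3, or with only the 6 astrocyte libraries fitted. The 2 higher genes became 0 with every library set to the same total, and 1 without astrocyte cell library 1 or 3 or sEV library 1. The 1 lower gene in microglia became 2 with a pseudocount of 10, with the replicate block, or without astrocyte sEV library 1 or microglia sEV library 3. In neurons the 0 higher genes became 1 without microglia sEV library 1 or 3, and library weights gave 2 higher and 10 lower. At an unadjusted p under 0.05 the higher counts were 1 in microglia and 1 in neurons. With libraries set to the same total 1 cytosolic gene was called higher in microglia, and after quantile normalization 2, with medians of 0.33 and 0.19.

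Hspa8 (identifier ENSMUSG00000015656.18) encodes HSC70, the constitutive cytosolic HSP70, which also uncoats clathrin vesicles and serves chaperone-mediated autophagy. In astrocytes Hspa8 was at 118735, 140264 and 119307 in cells and 56139, 56407 and 56256 in sEVs. In microglia Hspa8 was at 170836, 169375 and 197509 in cells and 181150, 172950 and 190183 in sEVs. In neurons Hspa8 was at 177086, 155040 and 140113 in cells and 35478, 31918 and 35755 in sEVs. Microglia cells and sEVs overlapped, while in both other types all sEVs were below all cells. The log2 differences were -1.16 ± 0.08 in astrocytes (adjusted p = 1.89e-07), 0.02 ± 0.08 in microglia (adjusted p = 1.0) and -2.19 ± 0.08 in neurons (adjusted p = 1.42e-10). After quantile normalization the microglia value was 0.58 (adjusted p = 0.018). The ratio of Hspa5 to Hspa8 within a library was 0.420 to 1.83 in cells and 0.0467 to 0.201 in sEVs, with no overlap.

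The cytosolic HSP90 pair is made of Hsp90aa1, the more stress-inducible isoform, and Hsp90ab1, the more constitutive. Astrocyte Hsp90aa1 was at 19023, 21487 and 23737 in cells and 16142, 12717 and 15150 in sEVs. Microglia Hsp90aa1 was at 14703, 12290 and 13800 in cells and 16596, 20578 and 14807 in sEVs. Neuron Hsp90aa1 was at 38103, 40314 and 38263 in cells and 11893, 7948 and 10575 in sEVs. Neuron cells were the highest group and neuron sEVs the lowest. The log2 differences were -0.55 ± 0.15 in astrocytes (adjusted p = 0.0153), 0.34 ± 0.15 in microglia (adjusted p = 0.119) and -1.96 ± 0.15 in neurons (adjusted p = 1.61e-07). The astrocyte call was lost without sEV library 2 (adjusted p = 0.0596) or cell library 3 (0.0668), and the microglia value was called at 0.66 with equal totals (0.0194) and 0.45 after quantile normalization (0.0453).

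Astrocyte Hsp90ab1 was at 58690, 70019 and 60851 in cells and 103962, 76031 and 97960 in sEVs. Microglia Hsp90ab1 was at 49195, 50277 and 55890 in cells and 49075, 60867 and 63899 in sEVs. Neuron Hsp90ab1 was at 67754, 69985 and 69346 in cells and 51385, 40432 and 53124 in sEVs. Astrocyte sEVs were all above their cells, neuron sEVs all below theirs, and microglia overlapped. Hsp90ab1 was 1.46-fold higher in astrocyte sEVs (log2 0.54 ± 0.13 SE, adjusted p = 0.00547) and 1.44-fold lower in neuron sEVs (log2 -0.52 ± 0.13 SE, adjusted p = 0.00558). The astrocyte call was lost with equal library totals (0.37, adjusted p = 0.149) and with only the 6 astrocyte libraries fitted (adjusted p = 0.132). Its ER counterpart moved apart from it in every library, the ratio of Hsp90b1 to Hsp90ab1 being 0.490 to 0.941 in cells and 0.00909 to 0.0941 in sEVs.

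**Figure D4:**
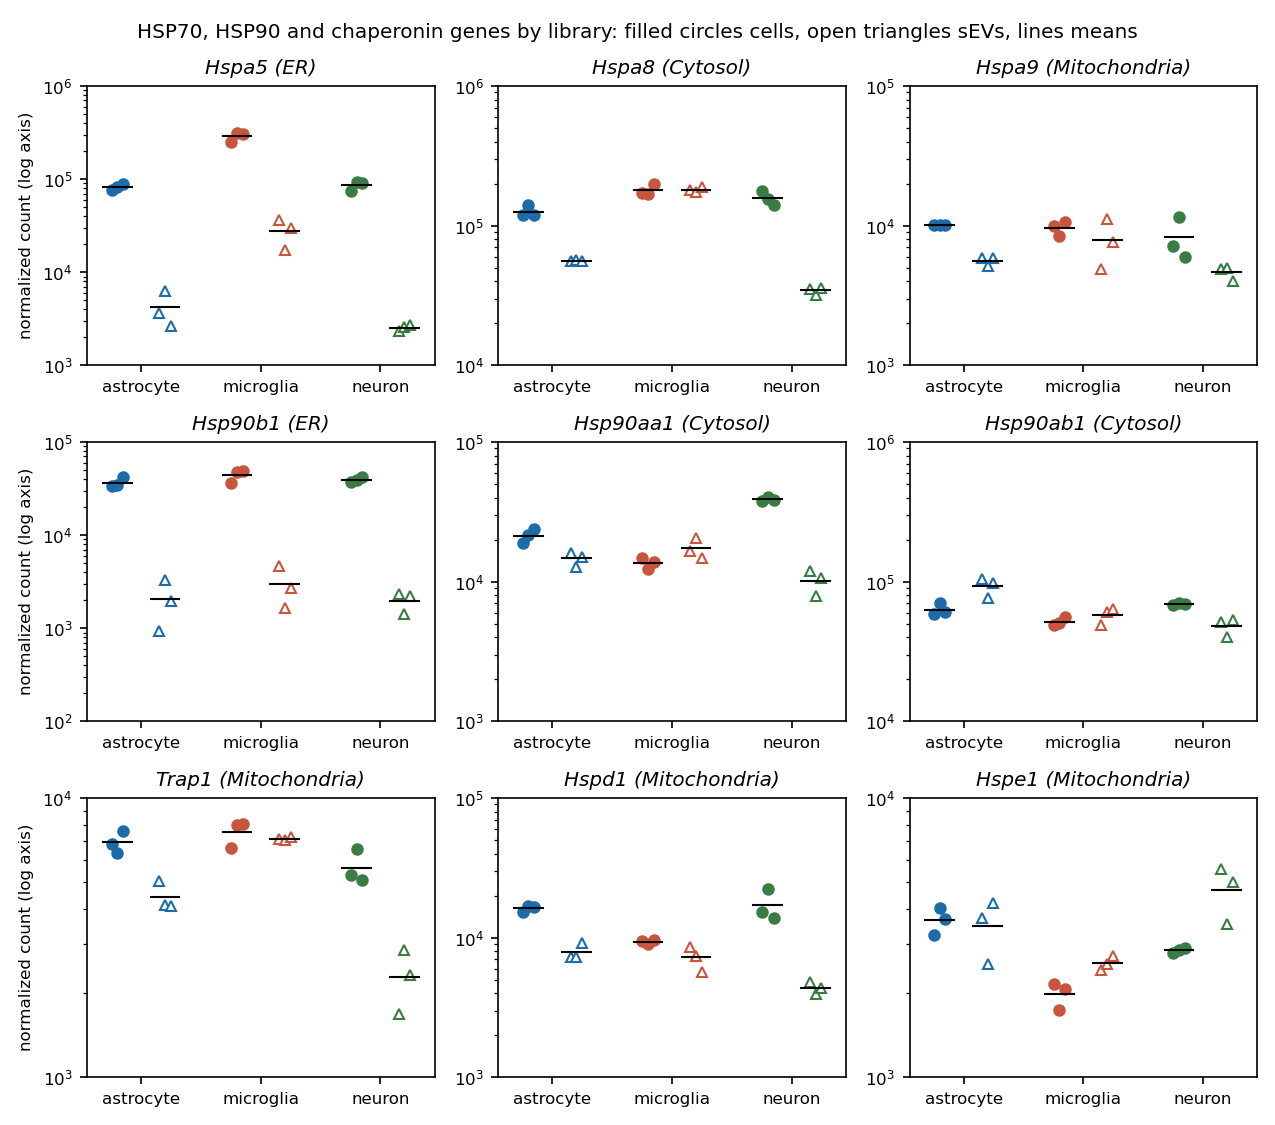
Normalized count per library (y axes, log scale, ranges differ) of HSP70, HSP90 and mitochondrial chaperonin genes by cell type (x axes). Filled circles are cells, open triangles sEVs and lines means; Hspa5 and Hsp90b1 drop in sEVs of all 3 types, Hspa8 drops in astrocytes and neurons but overlaps in microglia, and Hspe1 does not drop.

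Dnaja1 is a J-domain partner of HSC70. Astrocyte Dnaja1 was at 16176, 17464 and 12606 in cells and 10533, 8802 and 10167 in sEVs. Microglia Dnaja1 was at 22176, 19442 and 24307 in cells and 17203, 22600 and 27286 in sEVs. Neuron Dnaja1 was at 16113, 19437 and 12481 in cells and 3476, 2826 and 3784 in sEVs. Its pattern followed the order of Hspa8: neuron sEVs far below, astrocyte sEVs below and microglia overlapping. The log2 differences were -0.64 ± 0.19, 0.01 ± 0.19 and -2.24 ± 0.19 in astrocytes, microglia and neurons. The astrocyte call (adjusted p = 0.024) was lost without cell library 1 (0.0781), cell library 2 (0.0966) or sEV library 2 (0.0751), and without sEV libraries 2 and 3 together (0.196).

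Hspa4, a member of the HSP110 branch that releases nucleotide from HSP70, was the cytosolic gene called lower in all 3 types. Astrocyte Hspa4 was at 4563, 5451 and 4663 in cells and 2931, 2962 and 2368 in sEVs. Microglia Hspa4 was at 8170, 9585 and 8694 in cells and 5876, 4486 and 4242 in sEVs. Neuron Hspa4 was at 4598, 4859 and 3870 in cells and 1738, 1873 and 1694 in sEVs. No group pair overlapped, and the log2 differences were -0.83 ± 0.17, -0.87 ± 0.17 and -1.32 ± 0.17, all with an adjusted p of at most 0.00217.

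The heat-inducible HSP70 pair Hspa1a and Hspa1b was low. Astrocyte Hspa1a was at 53.3, 144 and 164 in cells and 0, 139 and 60.8 in sEVs. Microglia Hspa1a was at 582, 647 and 716 in cells and 0, 126 and 344 in sEVs. Neuron Hspa1a was at 458, 277 and 406 in cells and 0, 31.6 and 32.3 in sEVs. The first sEV library of each type was listed at 0. Hspa1a was called lower over the mean (log2 -3.93 ± 1.19 SE, adjusted p = 0.0134) and in no single type, and this size rests on the pseudocount (-2.76 with a pseudocount of 10). In neurons the difference of -5.18 was called when astrocyte sEV library 1 or microglia sEV library 1 was left out (adjusted p = 0.038 and 0.0215). Hspa1b was at 0.917, 0.693 and 0.583 in astrocyte cells, 4.58, 1.29 and 0.883 in microglia cells and 3.45, 15.8 and 0.651 in neuron cells. Among sEV libraries Hspa1b was listed at 0 in all but microglia library 2, at 5.12. It failed the filter and was not tested. The pair are near-identical, so reads may be split between them: their sum gave -3.94 over the mean (adjusted p = 0.0133).

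Among the other cytosolic genes, Hsph1, an HSP110 exchange factor, Dnajb1, a heat-inducible J-domain protein, and Hspb1, a small heat shock protein, were not called in any sEV comparison. Hsph1 was at 0, 1052 and 2252 in microglia sEVs and at 962, 1158 and 992 in microglia cells. Its mean difference of -1.88 ± 1.09 was -0.70 (adjusted p = 0.00815) without the first of these libraries and -2.56 (adjusted p = 0.0392) without the third, and without the first the neuron value of -1.91 was called (adjusted p = 0.000359). Hspb1 reached at most 515 and was listed at 0 in 4 of 9 sEV libraries. Its mean difference of -2.42 ± 1.17 was -3.18 (adjusted p = 0.0177) without microglia sEV library 3. In microglia the Hspb1 difference of -5.49 was -7.79 without that library (adjusted p = 0.00653) and was called at -5.49 without astrocyte sEV library 1 (adjusted p = 0.0346). The Dnajb1 mean of -0.59 ± 0.31 was -0.77 (adjusted p = 0.0357) without astrocyte sEV library 2.

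TRiC, the cytosolic chaperonin that folds actin and tubulin, is a ring of different subunits. Of these, 7 are among the members (Tcp1, Cct2, Cct3, Cct4, Cct5, Cct7 and Cct8), and the TRiC counts here cover only these 7. The further subunit Cct6a was tested too, but is counted below in the list of prefoldin and chaperonin genes. Over the mean of the cell types 1 subunit was called higher and 2 lower, with a median log2 difference of -0.02; the 3 of 7 called stand beside 49.1% of all genes. None was called in microglia by limma, nor at an unadjusted p under 0.05, and their differences there ran from -0.20 to 0.23. The subunits did not move together over the mean of the types: Cct2 was 1.43-fold higher (0.51 ± 0.15 SE, adjusted p = 0.013), and Cct8 2.0-fold lower (-1.0 ± 0.10 SE, adjusted p = 7.73e-07).

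Cct8 had the largest shift of the 7 subunits. Astrocyte Cct8 was at 14506, 16195 and 13653 in cells and 7417, 8298 and 6788 in sEVs. Microglia Cct8 was at 16504, 14216 and 17253 in cells and 14387, 14125 and 13066 in sEVs. Neuron Cct8 was at 10566, 11762 and 9021 in cells and 3830, 2295 and 2951 in sEVs. The groups separated in astrocytes and neurons and overlapped in microglia, with log2 differences of -0.98 ± 0.17, -1.81 ± 0.17 and -0.20 ± 0.17. Astrocyte Cct7 was at 20136, 23120 and 18209 in cells and 16642, 9891 and 13371 in sEVs. Microglia Cct7 was at 15911, 14915 and 17438 in cells and 15639, 15354 and 18987 in sEVs. Neuron Cct7 was at 16395, 19689 and 18095 in cells and 10560, 11247 and 12068 in sEVs. Cct7 also separated in astrocytes and neurons and overlapped in microglia, with -0.65 ± 0.16 in astrocytes, 0.05 ± 0.16 in microglia and -0.68 ± 0.16 in neurons. Without astrocyte sEV libraries 2 and 3 the astrocyte value was -0.29 (adjusted p = 0.206).

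Cct2 was higher in astrocyte sEVs. It was at 4044 to 5653 in astrocyte cells and 8027 to 9753 in astrocyte sEVs, and its log2 difference of 0.94 ± 0.27 (adjusted p = 0.017) lost its call with equal totals (0.77, adjusted p = 0.0659) and without astrocyte cell library 1 or 3 or sEV library 1 (0.0542 to 0.0662). In neurons Cct2 was at 4786 to 5507 in cells and 7259 to 8045 in sEVs without overlap, a difference of 0.56 ± 0.27 that was not called (adjusted p = 0.136) unless microglia sEV library 1 was left out (0.0111). Neuron Cct3 gave 0.49 ± 0.23 (adjusted p = 0.118), which was called without microglia sEV library 3 (0.0322). Cct5 was called lower in astrocytes (-0.48 ± 0.17, adjusted p = 0.046) and lost that call in 15 of 27 alternatives, 11 of them by leaving out 1 library: astrocyte cell library 1 or 2, astrocyte sEV library 2 or 3, any microglia or neuron cell library, or neuron sEV library 1 (0.0535 to 0.176). Without astrocyte sEV libraries 2 and 3 it was -0.20 (adjusted p = 0.574). Tcp1 and Cct4 were not called in any type. Over the mean of the types, 3 further subunits were called when 1 library was left out: Tcp1 (0.25, adjusted p = 0.0108) was called without astrocyte sEV library 2, and Cct3 (0.27, adjusted p = 0.0312) and Cct5 (-0.24, adjusted p = 0.036) without microglia sEV library 3.

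**Figure D5:**
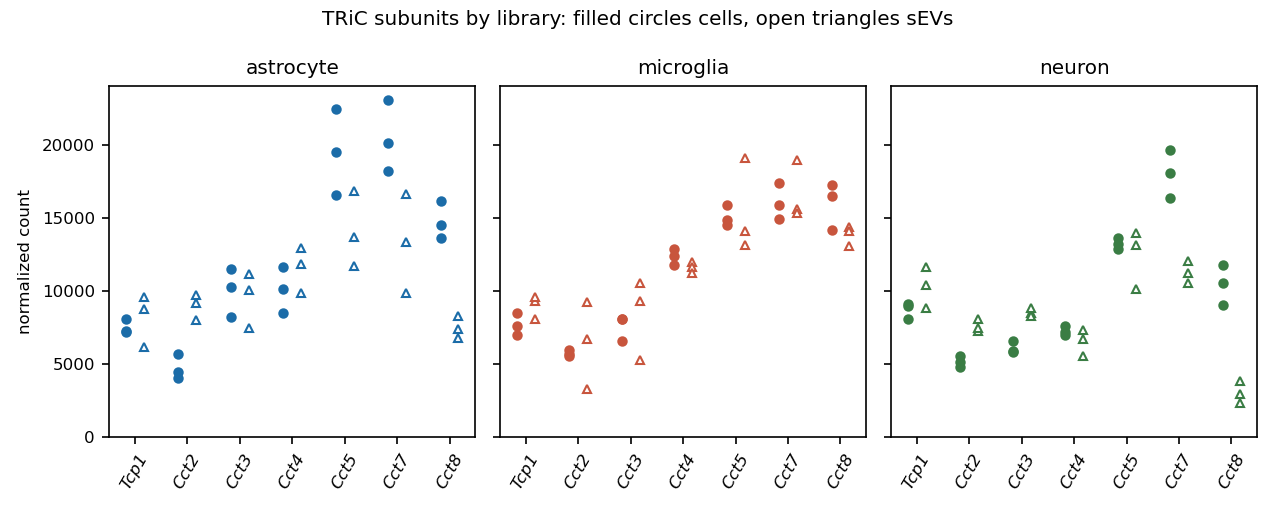
Normalized count per library (y axis, from 0) of the 7 TRiC subunits among the members (x axis) in astrocytes, microglia and neurons. Filled circles are cells and open triangles sEVs. Triangles and circles overlap for all 7 in microglia, while Cct8 triangles lie below and Cct2 triangles above the circles in astrocytes and neurons.

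In mitochondria, Hspd1 (HSP60) forms a chaperonin barrel and Hspe1 (HSP10) is its lid. Their genes lie head to head on chromosome 1, with 215 bases between the start sites. The 250 bases before the Hspd1 start (GRCm38.p6, RefSeq, chr1:55087933-55088182, minus strand) are printed because the same 215 bases lead into Hspe1 on the other strand. Capitals mark the run that holds the heat shock element, searched as GAA, TTC and GAA, or TTC, GAA and TTC, each 2 bases apart, on both strands.
Hspd1: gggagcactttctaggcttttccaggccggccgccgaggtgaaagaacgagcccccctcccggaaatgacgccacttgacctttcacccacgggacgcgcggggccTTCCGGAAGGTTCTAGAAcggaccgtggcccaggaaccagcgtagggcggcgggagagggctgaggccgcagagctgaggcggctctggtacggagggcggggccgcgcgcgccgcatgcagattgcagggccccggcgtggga
This element was in 0.603% of all windows and, among the members with a window, in Hspd1, Hspe1 and Hsph1. Hspa8, Hsp90aa1, Hsp90ab1, Cct4, Hspa9, Hyou1 and Manf had no window and were not searched. Elements that depart from these letters, or that lie outside the window, would be missed.

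Transcripts of the pair were measured separately. Astrocyte Hspd1 was at 15287, 16993 and 16458 in cells and 7240, 7234 and 9186 in sEVs. Microglia Hspd1 was at 9483, 8951 and 9658 in cells and 8601, 7437 and 5728 in sEVs. Neuron Hspd1 was at 15196, 22266 and 13867 in cells and 4801, 3977 and 4383 in sEVs. All sEVs were below all cells in each type, with log2 differences of -1.05 ± 0.18 (adjusted p = 0.000491), -0.39 ± 0.18 (adjusted p = 0.131) and -1.94 ± 0.18 (adjusted p = 9.64e-07). Astrocyte Hspe1 was at 3223, 4042 and 3680 in cells and 3729, 2538 and 4219 in sEVs. Microglia Hspe1 was at 2155, 1745 and 2078 in cells and 2418, 2544 and 2710 in sEVs. Neuron Hspe1 was at 2787, 2859 and 2913 in cells and 5556, 3539 and 4986 in sEVs. Hspe1 sEVs were all above the cells in microglia and neurons and overlapped in astrocytes. Its log2 differences were -0.09 ± 0.22 in astrocytes (adjusted p = 0.852), 0.36 ± 0.22 in microglia (adjusted p = 0.259) and 0.69 ± 0.22 in neurons (adjusted p = 0.027). The Hspe1 call over the mean (0.32 ± 0.13 SE, adjusted p = 0.0475) was lost in 19 of 26 alternatives, 15 of them by leaving out any 1 library other than astrocyte sEV 2, microglia sEV 1 or neuron sEV 2 (0.05 to 0.0964). The neuron call was lost in 7 of 27, among them equal totals (0.39, adjusted p = 0.317) and leaving out any neuron cell library or neuron sEV library 1 or 3 (0.0613 to 0.116). The ratio of Hspd1 to Hspe1 within a library was 4.20 to 7.79 in cells and 0.864 to 3.56 in sEVs, with no overlap.

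Hspa9 (mortalin) is the mitochondrial HSP70, which also pulls precursors through the inner membrane, and Trap1 the mitochondrial HSP90. Astrocyte Hspa9 was at 10140, 10124 and 10051 in cells and 5840, 5121 and 5909 in sEVs. Microglia Hspa9 was at 10002, 8375 and 10673 in cells and 4908, 11227 and 7671 in sEVs. Neuron Hspa9 was at 7215, 11587 and 5998 in cells and 4891, 4973 and 4050 in sEVs. It was lower in astrocytes (-0.85 ± 0.26, adjusted p = 0.0263) and neurons (-0.78 ± 0.26, adjusted p = 0.035) and overlapped in microglia (-0.36 ± 0.26, adjusted p = 0.363). Both calls were fragile: the astrocyte one was lost without any astrocyte library but sEV library 3 (0.0527 to 0.0716) and without sEV libraries 2 and 3 together (0.164), and the neuron one without any neuron library but cell library 3 (0.0563 to 0.175). Astrocyte Trap1 was at 6837, 6371 and 7589 in cells and 5040, 4130 and 4111 in sEVs. Microglia Trap1 was at 6627, 8012 and 8075 in cells and 7151, 7072 and 7233 in sEVs. Neuron Trap1 was at 5296, 6550 and 5070 in cells and 1684, 2853 and 2322 in sEVs. Trap1 fell most in neurons (-1.33 ± 0.18, adjusted p = 6.27e-05) and also in astrocytes (-0.65 ± 0.18, adjusted p = 0.0175), a call lost without astrocyte cell library 3 (adjusted p = 0.0672) or without astrocyte sEV libraries 2 and 3 (0.224), while microglia overlapped (-0.08 ± 0.18, adjusted p = 0.911).

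Whether the sEV difference of a gene depended on the cell type was tested directly. The F test called 14 of 35 chaperones, beside 21.6% of genes tested: 6 ER genes (Hspa5, Calr, Canx, Pdia3, Pdia6 and Dnajb11), 6 cytosolic genes (Hspa8, Hsp90aa1, Hsp90ab1, Dnaja1, Cct7 and Cct8) and the mitochondrial genes Hspd1 and Trap1. With the replicate number as a block it called 9. Between microglia and neurons, 14 of 35 had a higher sEV difference in microglia and 0 a lower one, beside 7.82% and 12.9% of genes tested (20.7% in either direction). At an unadjusted p under 0.05 these counts were 15 and 1. Hspa8 and Hsp90aa1 differed the most clearly, by 2.21 ± 0.12 (adjusted p = 3.51e-08) and 2.30 ± 0.22 (adjusted p = 2.62e-06) on the log2 scale, that is, sEV levels relative to cells stood higher in microglia than in neurons. Of the 15 ER genes, 6 were called in the same direction, among them Pdia3 (2.03 ± 0.28, adjusted p = 8.78e-05) and Canx (1.90 ± 0.28, adjusted p = 0.000205). The values of P4hb (-0.18), Dnajc3 (-0.42), Dnajb9 (-0.60) and Hyou1 were negative and not called. The calls of Cct7 (0.72 ± 0.22, adjusted p = 0.0328) and Dnajb11 (1.42 ± 0.40, adjusted p = 0.0194) depended on single libraries: Dnajb11 was lost without neuron cell library 2 (adjusted p = 0.0504), and Cct7 without microglia cell library 1 or 2, microglia sEV library 3, neuron cell library 2 or 3, or neuron sEV library 1 or 2 (0.058 to 0.0788).

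Between astrocytes and neurons, 5 of 35 chaperones had a higher difference in astrocytes and 0 a lower one, beside 2.47% and 2.63% of genes tested (5.09% in either direction), and at an unadjusted p under 0.05 there were 8 and 2. These were Dnaja1 (1.60 ± 0.27), Hsp90aa1 (1.41 ± 0.22), Canx (1.10 ± 0.28), Hsp90ab1 (1.07 ± 0.18) and Hspa8 (1.03 ± 0.12). The Canx call (adjusted p = 0.0374) was lost when any of 9 libraries was left out, namely the 3 neuron cell libraries, astrocyte cell and sEV libraries 1 and 2, neuron sEV library 3 or microglia cell library 3 (0.0524 to 0.11). Between astrocytes and microglia, 4 chaperones had a lower difference in astrocytes and 0 a higher one, beside 4.53% and 8.77%, and at an unadjusted p under 0.05 there were 13 and 3. They were Pdia3 (-1.53 ± 0.28), Hspa8 (-1.18 ± 0.12), Hsp90aa1 (-0.89 ± 0.22) and Cct8 (-0.78 ± 0.23). Both other scalings raised the count of lower genes to 13. The Cct8 call (adjusted p = 0.0395) was lost in 14 of 26 alternatives, 10 of them by leaving out 1 library: astrocyte cell library 1 or 2, astrocyte sEV library 1 or 3, any microglia cell library, microglia sEV library 1 or 2, or neuron cell library 1 (0.0515 to 0.104). The Hsp90aa1 call was lost with library weights (0.0776), with the replicate block (0.0545) and without astrocyte sEV libraries 2 and 3 (0.0754). The 3 pairwise comparisons share libraries and are not independent of each other.

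Genes that work with these chaperones gave the surrounding picture, from lists chosen with earlier results known. Over the mean of the types 37.1% of all genes were called lower and 12% higher, and a list near these shares does not stand apart by its count. Of 22 further ER folding enzymes and co-factors, 20 were called lower in sEVs over the mean of the types and 2 were not called, with a median of -3.35 against -0.93 for all genes. Among them were Tmx1, a membrane-bound disulfide isomerase (-3.40 ± 0.19), Ppib, the ER cyclophilin (-2.57 ± 0.12), Fkbp2, an ER prolyl isomerase (-1.81 ± 0.13), and Sdf2, the relative of Sdf2l1 (-1.69 ± 0.12). Of 20 genes of the unfolded protein response and ER-associated degradation, 13 were lower and 1 higher, with a median of -2.29. Os9, a lectin that hands misfolded glycoproteins to degradation, was at -5.53 ± 0.27, Selenos at -2.75 ± 0.16, the stress transcription factor Xbp1 at -2.41 ± 0.19, and the cytosolic ATPase Vcp, which extracts proteins from the membrane, at -1.26 ± 0.07. Of 29 cytosolic co-chaperones and heat shock regulators, 13 were lower and 5 higher, near the shares of all genes, with a median of -0.56. They ranged over the HSP90 co-chaperones Stip1 (-1.29 ± 0.18) and Chordc1 (-1.43 ± 0.19), the HSP70 Hspa2 (-3.31 ± 0.45) and the HSP70 exchange factor Bag1, which was 10.8-fold higher in sEVs (3.44 ± 0.24, adjusted p = 2.95e-08).

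A list of 11 prefoldin and chaperonin genes held prefoldin subunits, co-factors and the TRiC subunit Cct6a. Of these 11, 7 were called higher and 1 lower, beside 12% and 37.1% of all genes, with a median of 0.45. Prefoldin hands actin and tubulin chains to TRiC, and its subunits Pfdn5 (1.49 ± 0.09) and Pfdn1 (1.39 ± 0.10) were higher, as were the tubulin co-factor Tbca (0.81 ± 0.12) and the TRiC regulator Txndc9 (0.49 ± 0.07). Of 13 mitochondrial co-chaperones and proteases, 5 were lower, near the 37.1% of all genes, and 4 higher, beside 12%, with a median of 0.22. Grpel1, the exchange factor of Hspa9, was at 0.66 ± 0.10, the J-domain protein Dnajc19 at 0.81 ± 0.13, the stress factor Atf5 at 2.67 ± 0.26 (3.43 in astrocytes and 4.73 in neurons, but -0.14 in microglia, adjusted p = 0.975) and the inner membrane protease Yme1l1 at -1.71 ± 0.14. All these means carry an adjusted p of at most 0.000139 in limma. Of the genes named from these lists, Atf5, Chordc1, Hspa2, Stip1 and Yme1l1 were not called in microglia, and Dnajc19 and Tbca not in astrocytes.

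Levels in the source cells were compared between the types in a fit of the 9 cell libraries. Limma called 22 of 35 chaperones between astrocytes and microglia, 13 between astrocytes and neurons and 19 between microglia and neurons, beside 64.4%, 32.5% and 71.7% of 18410 genes tested. Between astrocytes and microglia 12 were higher in astrocytes and 10 lower, beside 43.6% and 20.8%. Between astrocytes and neurons 7 were higher in astrocytes and 6 lower, beside 10.4% and 22.1%. Between microglia and neurons 10 were higher in microglia and 9 lower, beside 19.9% and 51.8%. These directions depend on scaling, with a change of sign for 5, 0 and 5 of the called chaperones: the median of all genes between astrocyte and microglia cells was 0.84 as deposited, 1.53 with equal totals and 0.19 after quantile normalization, and between microglia and neurons it was -1.26, -1.87 and -0.02. Called the same way in all 3 scalings were 16, 9 and 9 chaperones, and the genes named next are from these, a choice made after their values were seen. Microglia cells had more Hspa5 than astrocyte cells (astrocyte minus microglia -1.81 ± 0.13) and more Sdf2l1 (-2.01 ± 0.23). Astrocyte cells had more Pdia4 than microglia (2.07 ± 0.14) and neurons (1.40 ± 0.14), and more Dnajc3 (1.36 ± 0.17 and 0.96 ± 0.17). Neuron cells had the most Hsph1, with -1.19 ± 0.20 for astrocytes and -3.53 ± 0.20 for microglia minus neurons, and the most Hsp90aa1, with -0.87 ± 0.11 and -1.52 ± 0.11. All these values had an adjusted p of at most 0.0024.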

How the data were processed

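The authors deposited 1 table of normalized counts (unit: signal) for 18 mouse libraries. Per the submitters' processing notes, it was made with Salmon 1.8.0, DESeq2 and build GRCm39. Of the deposited signal values below 100, only 2.9 to 9.04% per library were whole multiples (within 0.001) of the value that occurs most often there. Reads could therefore not be recovered, count tests were not used and depth is unknown. The deposited group means were not used.

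Log2(value + 1) was fitted with limma 3.58.1 (trend) in R 4.3.3: 6 group means over 18 libraries, and 3 over the 9 cell libraries. Genes at 10 or more in at least 3 libraries were tested, and calls needed a Benjamini-Hochberg adjusted p under 0.05 over all genes of a contrast. On simulated data with sEVs shifted by 1 and 2 log2 units in single genes of all levels, the fit called 17% and 42% over the mean and 3% and 15% in microglia, so an uncalled gene is not shown to be unchanged. Few genes were shifted there, whereas the real data had 49.1% of genes called over the mean and 26.2% in microglia. Adjusted p-values are stricter when few genes change, so these percentages are not the power for the chaperones. Alternatives covered pseudocount, filter, scaling, library weights, a replicate block and left-out libraries. Same-numbered cell and sEV libraries did not deviate together (r from -0.04 to 0.044), which cannot exclude pairing with 3 libraries a group. The labels share replicate numbers but do not say that a number marks a shared culture, so no pairing was used in the main fit.

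The members and lists were chosen with earlier results of these data known. All members may be named; values in every library are given for Hspa5, Hspa8, Hspa9, Hspa1a, Hspa1b, Hsp90b1, Hsp90aa1, Hsp90ab1 and Trap1, and per compartment for the 4 other members (2 in mitochondria) with the smallest p for the mean and the 2 with the smallest F test p. From each other list the 4 genes with the smallest p are named by their log2 difference only. Promoters are from RefSeq, transcripts from GENCODE.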

Additional observations from a re-analysis of the deposited data

Results flagged for a closer look

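The sEV difference of a gene differed between a pair of cell types in 23 cases, by limma's test of the difference itself (Benjamini-Hochberg adjusted p under 0.05). For microglia minus neurons, astrocytes minus neurons and astrocytes minus microglia, 14, 5 and 4 of 35 chaperones were called. Among all 19612 genes tested, 20.7%, 5.09% and 13.3% were called in these pairs. The 3 pairs share libraries. Values are the difference of the log2 sEV differences.

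For microglia minus neurons, 6 were ER genes: Pdia3 2.03, Canx 1.90, Hspa5 1.66, Pdia6 1.56, Dnajb11 1.42 and Calr 1.08. The cytosolic genes were Hsp90aa1 at 2.30, Dnaja1 at 2.24, Hspa8 at 2.21, Cct8 at 1.61, Cct7 at 0.72 and Hsp90ab1 at 0.68. The mitochondrial genes were Hspd1 at 1.55 and Trap1 at 1.25. All 14 stood higher in microglia.

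For astrocytes minus neurons the values were 1.60 for Dnaja1, 1.41 for Hsp90aa1, 1.10 for Canx, 1.07 for Hsp90ab1 and 1.03 for Hspa8. For astrocytes minus microglia they were -1.53 for Pdia3, -1.18 for Hspa8, -0.89 for Hsp90aa1 and -0.78 for Cct8. Hspa8 and Hsp90aa1 differed in all 3 pairs. Some calls were lost under alternatives. For astrocytes minus microglia, Cct8 lost its call in 14 of 26 and Hsp90aa1 in 3. For astrocytes minus neurons, Canx lost its call in 10 of 26. For microglia minus neurons, Cct7 lost its call in 9 of 26 and Dnajb11 in 1.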

How the results depend on the processing

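Of 492 counts of called chaperones under alternatives, 434 stayed within 1.5 times the reported count and 58 did not. Of 4891 values for single genes, 4694 kept their side of the threshold, 148 lost a call and 49 gained one. Of 1264 values of uncalled genes 43 had the opposite sign. No called value among these changed sign, but for cell pairs they cover only genes called alike in all 3 scalings: 5 of 22 called genes for astrocytes minus microglia and 5 of 19 for microglia minus neurons changed sign with scaling. The total of chaperones lower in sEVs stayed within 1.5 times in every alternative. By compartment, the 7 cytosolic genes lower in astrocytes became 4 without sEV library 2 and the 3 mitochondrial ones 1 without cell library 3.

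Over the mean of the types, 2 genes were higher and 1 with no filter, equal totals, library weights or the replicate block (1 to 3 with 1 library left out). In astrocytes 2 were higher, 0 with equal totals, and 1 without sEV libraries 2 and 3 or with only the 6 libraries of the type (1 to 2 with 1 left out). In microglia 0 were higher, 1 with equal totals and 2 after quantile normalization. In neurons 1 was higher, 0 with equal totals or the replicate block, and 3 with library weights or only 6 libraries (0 to 2 with 1 left out). For astrocytes minus microglia the 4 lower genes became 13 with equal totals, 13 after quantile normalization, and 2 with library weights, with the replicate block or without astrocyte sEV libraries 2 and 3, and the 0 higher genes 0 to 1 with 1 library left out. For microglia minus neurons the 0 lower genes became 0 to 1 with 1 left out. The cause was not tested.

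In cells, equal totals and quantile normalization gave 26 and 24 higher and 4 and 6 lower for astrocytes minus microglia (12 and 10 as deposited). Among all 18410 genes tested they gave 10523 and 5898 higher and 2619 and 4840 lower (8028 and 3822 as deposited). For microglia minus neurons these scalings gave 2 and 5 higher and 21 and 17 lower (10 and 9 as deposited). All genes gave 2618 and 5763 higher and 11503 and 6043 lower (3666 and 9530 as deposited). For astrocytes minus neurons quantile normalization gave 12 higher against 7, beside 4192 against 1916 among all genes. The 6 lower became 3 to 6 with 1 library left out. Over all genes, 2355 were higher and 7283 lower in sEVs over the mean, 2190 and 7538 with equal totals, and 4711 and 4225 after quantile normalization.

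The replicate number as a block lowered the F test count from 14 to 9. Same-numbered cell and sEV libraries had correlations of -0.04 to 0.044, none above 0.1, and the labels do not say whether a number marks a shared culture, so no pairing was assumed. With 3 libraries a group and unknown depth, Hspb1 and Hspa1a, which are low, rest in part on values of 0, and so does Dnajb9 through 1 microglia sEV library.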
